A study of Homo sapiens with 2 samples.

Results

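The genes described here are 10 genes of the cornified envelope and of the squamous differentiation that builds it: CSTA, IVL, SPRR1A, SPRR1B, SPRR2A, SPRR3, TGM1, CNFN, SBSN and TRIM29. They are 10 of the 27685 genes listed in the deposited RNA-seq tables, and all of them were found there by symbol. They were chosen by name and on their FPKM and read counts in these 2 libraries, which were known at that point, so their differences between the lines are given as a description and were not tested. The tables hold 1 library of H2087 cells and 1 library of H596 cells, both established lines labelled as lung adenocarcinoma, both untreated and both grown in RPMI medium with fetal bovine serum. Cell line catalogues list H596 as an adenosquamous carcinoma line, which differs from its label here. The labels name no added allele or agent for either line. The study started from potentially functional variants inside histone modification peaks of H2087 cells. It then kept those in or nearest to genes highly expressed in these cells. Its text does not discuss the H596 library. Because each line had 1 library, no value has a replicate check.

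The cornified envelope is the cross-linked protein shell that replaces the plasma membrane of a keratinocyte at the end of its life. Involucrin and the plakins are laid down first under the membrane, small proline-rich proteins and other precursors are then joined to them, and transglutaminases make the bonds between glutamine and lysine side chains. In the lung these genes are known from squamous metaplasia and from squamous carcinoma, while normal glandular and alveolar epithelium makes little of their products.

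Levels are FPKM values as deposited, that is, fragment numbers scaled to the length of the transcript and to the size of the library, and the range in parentheses is the 95% Wilson interval of the gene's share of all estimated counts, carried over to its FPKM. These intervals cover counting error only. Folds are ratios of the share of all estimated counts in one library to that in the other, with an exact conditional binomial 95% interval. Differences are of log2(FPKM + 1), H596 minus H2087, and understate the change of genes with low levels. The estimated counts summed to 46961500 in H2087 and 55387847 in H596. In these bulk libraries, fewer cells that express a gene and less RNA per cell cannot be told apart.

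Several lineage markers also differed between the lines. Of 6 squamous and basal markers, 5 had a mean over the libraries of 1 FPKM or more, and 4 of these were at least 2-fold higher in H596, against 18.2% of all genes that passed the same filter. The summed level was 306.6 FPKM in H596 against 40.8 in H2087. Most of the H2087 sum was SOX2, which was within 2-fold, with 39.1 FPKM there and 56.5 in H596. KRT14 did not pass the filter, with 0 counts in H2087 and 1.33 FPKM in H596. KRT5 and DSG3, a basal keratin and a desmosomal cadherin, had 0 counts in H2087. Of 6 lung adenocarcinoma markers, 4 passed the filter and 3 of these were at least 2-fold lower in H596, against 14.2% of all genes that passed. A marker can pass this filter through the library in which it is high, and the marker lists were written with earlier results known. Nothing is therefore read from the marker counts beside these shares. NKX2-1, the lung lineage transcription factor, stood at 110 FPKM in H2087 against 0.508 in H596, and NAPSA, an aspartic protease of type II cells, at 21.9 against 0.0645. The surfactant genes SFTPB and SFTPC had at most 22 counts in either library. Apart from KRT7, a keratin of simple epithelia with 791 and 608 FPKM, the markers of the labelled tumor type were thus at or near 0 in H596. Of 6 epidermal suprabasal markers, LOR, KRT2 and DSC1 had 0 counts in both libraries, KRT1 had 4 counts and FLG 202 in H596, and KRT10 alone reached 1 FPKM, with 8.37 in H2087 and 12.7 in H596. The 6 stromal markers summed to 4.39 FPKM in H2087 and 10.7 in H596 and differed in both directions. DCN had 0 counts in H2087 and 2361 in H596, COL1A1 had 1106 and 308, SPARC had 85 and 0, and COL1A2 had 0 in both libraries. The 6 blood cell markers summed to 128 and 25.7 FPKM, almost all of it CD68, with PTPRC, CD3E and HBB at 0 counts. The part of the squamous program as a whole in the differences of single genes was not tested.

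The promoters of 5 of the chosen genes are shown because the genes differ in direction or in size between the lines while their start regions share a motif. The sequences are the 250 bases before the annotated start, written 5′ to 3′ on the strand of the gene, from RefSeq on GRCh38.p14, and their positions are on that build, unlike the hg19 positions of the deposited tables given further on. Capitals mark the AP-1 motif TGANTCA and the TATA motif TATAAA. IVL lies at chr1:152908296-152908545 (plus strand), SPRR3 at chr1:153001499-153001748 (plus strand), SPRR1B at chr1:153030953-153031202 (plus strand), SPRR2A at chr1:153057513-153057762 (minus strand) and SBSN at chr19:35528312-35528561 (minus strand).
IVL: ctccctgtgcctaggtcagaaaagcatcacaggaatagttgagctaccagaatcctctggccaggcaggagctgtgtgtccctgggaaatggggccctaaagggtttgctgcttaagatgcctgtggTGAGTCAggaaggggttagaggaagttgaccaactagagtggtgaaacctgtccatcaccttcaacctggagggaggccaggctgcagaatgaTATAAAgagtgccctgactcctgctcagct
SPRR3: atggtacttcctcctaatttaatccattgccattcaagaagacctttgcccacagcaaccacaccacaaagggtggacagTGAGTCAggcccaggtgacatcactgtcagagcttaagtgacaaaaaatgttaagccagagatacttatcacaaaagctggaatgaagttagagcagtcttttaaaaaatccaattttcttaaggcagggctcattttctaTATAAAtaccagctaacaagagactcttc
SPRR1B: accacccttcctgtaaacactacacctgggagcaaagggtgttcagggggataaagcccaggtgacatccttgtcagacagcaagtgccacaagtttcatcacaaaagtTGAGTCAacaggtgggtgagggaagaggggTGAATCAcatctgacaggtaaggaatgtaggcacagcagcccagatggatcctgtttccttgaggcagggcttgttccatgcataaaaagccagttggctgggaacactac
SPRR2A: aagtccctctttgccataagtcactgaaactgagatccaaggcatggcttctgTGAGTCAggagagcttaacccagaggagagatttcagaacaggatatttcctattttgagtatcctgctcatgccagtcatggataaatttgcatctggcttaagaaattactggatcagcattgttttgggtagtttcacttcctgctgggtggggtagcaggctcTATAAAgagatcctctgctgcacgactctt
SBSN: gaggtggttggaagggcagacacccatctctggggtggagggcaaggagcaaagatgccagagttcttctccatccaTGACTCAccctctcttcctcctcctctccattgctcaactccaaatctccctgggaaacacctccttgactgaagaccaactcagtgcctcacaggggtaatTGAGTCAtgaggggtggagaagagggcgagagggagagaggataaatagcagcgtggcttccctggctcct

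Promoter sequences were found for 7 of the 10 genes, all but CSTA, TGM1 and TRIM29. In windows of 250 bases before to 50 bases after the start, searched on both strands, TGANTCA was found in 6 of the 7, against 7.71% of all 35116 promoter windows. IVL and the SPRR genes lie in the same cluster and the SPRR genes are paralogs, so these promoters are not independent of each other. Counting the base before the start as -1, the match began at -123 in IVL, -108 in SPRR1A, -170 in SPRR3 and -197 in SPRR2A. SPRR1B held the motif at -141 and -111, and SBSN at -173 and -71. CNFN held none. TATAAA was found in 4 of the 7, IVL, SPRR1A, SPRR2A and SPRR3, beginning at -29 or -30 in each, against 11.5% of all windows. The motif AACNGGTT, bound by grainyhead-like factors, was found in 0 of the 7 and in 1.73% of all windows, and TTGCNNAA, bound by C/EBP factors, in 1 of the 7, SBSN, and in 10.5%. No match of one motif overlapped a match of another in these windows. The AP-1 letters were found in SBSN, which was lower in H596, and in IVL and the chosen SPRR genes. Of the latter, SPRR1A was within 2-fold and the others were higher in H596. Whether the motif has a part in the differences was not tested. A match describes the sequence and is not evidence of binding.

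Of the 10 genes, 8 were at least 2-fold higher in H596, 1 was at least 2-fold lower and 1 was within 2-fold. Among the 13048 genes whose mean over the libraries was 1 FPKM or more, 18.2% were at least 2-fold higher in H596 and 14.2% at least 2-fold lower, and nothing is read from this contrast because it guided the choice. All 10 passed the filter on mean FPKM. The median difference was 2.64 over the 10 genes and 0.12 over all genes tested. The latter was -0.0028 after TMM scaling and 0.29 in TPM. The genes together held 932 estimated counts in H2087 and 60331 in H596. CSTA and TRIM29 made up 87.7% of the H596 counts, and SBSN made up 45.9% of the few H2087 counts.

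**Figure D1:**
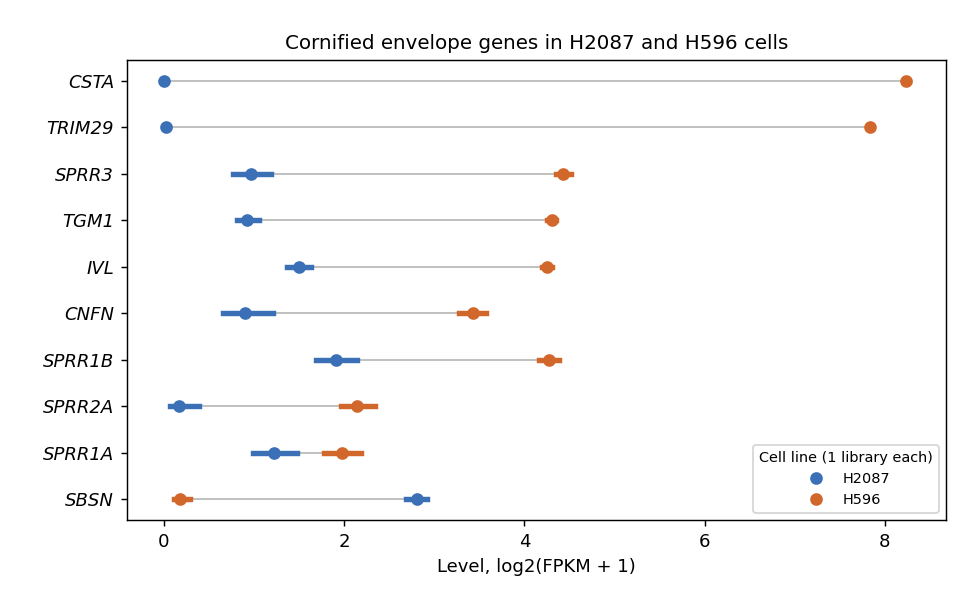
Levels of the 10 chosen genes as log2(FPKM + 1) on the horizontal axis, 1 row per gene, with blue points for the H2087 library and orange points for the H596 library. Thick bars are 95% Wilson intervals of counting error, shown where the count is above 0, and grey lines join the libraries. CSTA and TRIM29 stand far to the right in H596, and SBSN is the gene that lies higher in H2087.

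CSTA (gene 1475) encodes cystatin A, a cytosolic inhibitor of cysteine cathepsins that is also cross-linked into the envelope. It lies on chromosome 3 of hg19 from 122044011 to 122060815, on the plus strand. It had 0 counts in H2087, where the limit of 3 counts would be an FPKM of 0.0754, and 14129 counts in H596, an FPKM of 301.1 (296 to 306). The share of counts was thus at least 3993-fold higher in H596. CSTA ranked 164 among all genes in H596, and NM_005213 was its only listed transcript.

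The other cystatins had other patterns of level. CSTB, the closest relative and a ubiquitous cytosolic cathepsin inhibitor, stood at 354 FPKM in H2087 against 182 in H596, a difference of -0.96. CST3, the secreted cystatin C, had 109 and 194. CST6, the secreted cystatin M/E of the epidermis, was high where CSTA was not, with 1441 counts and an FPKM of 49.3 in H2087 and 0 counts in H596, at least 567-fold higher in H2087. H2087 thus had CST6 and no detectable CSTA, and H596 had CSTA and no detectable CST6. CST7, cystatin F of leukocytes, had 60 counts in H2087 and 0 in H596, and the other family members had at most 17 counts. Of the 8 other cystatins, 3 passed the filter, and 0 of these were at least 2-fold higher in H596, against 18.2% of all genes. CST6 was the 1 that was at least 2-fold lower, against 14.2% of all genes. With 3 genes, nothing is read from these counts.

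By levels in both libraries, the genes most like CSTA were TRIM29, CYBA and SYT8, at a Euclidean distance of 0.40, 0.52 and 0.58 on the log2(FPKM + 1) scale over 2 libraries. CYBA, a subunit of the phagocyte oxidase, had 5 counts in H2087 and an FPKM of 213 in H596. SYT8, a synaptotagmin, had 7 counts and an FPKM of 203. With 2 points per gene this likeness describes levels and nothing more.

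IVL (gene 3713) encodes involucrin, the glutamine-rich scaffold that is cross-linked first. It lies on chromosome 1 from 152881021 to 152884362, on the plus strand. It had an FPKM of 1.83 (1.58 to 2.10) from 189 counts in H2087 and 18.1 (17.3 to 18.8) from 2207 counts in H596, and the intervals did not overlap. The share of counts was 9.90-fold higher in H596 (8.53 to 11.5). IVL was therefore detected in both lines, unlike CSTA.

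The small proline-rich proteins are short cross-bridging precursors, and their genes follow IVL on chromosome 1. SPRR3 (gene 6707, 152974223 to 152976332), which is typical of mucosal squamous epithelium, had an FPKM of 0.951 (0.704 to 1.29) in H2087 and 20.6 (19.4 to 21.8) in H596. It was 21.4-fold higher in H596 (15.7 to 29.9). SPRR1B (gene 6699, 153003679 to 153005376), a marker of squamous change in airway epithelium, had 2.75 (2.21 to 3.41) and 18.3 (17.0 to 19.8), a 6.66-fold difference (5.28 to 8.49). For both genes the intervals of the libraries lay far apart.

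SPRR1A (gene 6698), from 152956564 to 152958290, differed least of the 10 genes. It had 42 counts and an FPKM of 1.32 (0.980 to 1.79) in H2087, and 109 counts and 2.93 (2.43 to 3.54) in H596. The share of counts was 2.20-fold higher in H596 (1.53 to 3.22), while the difference of log2(FPKM + 1) was 0.76 and so did not reach 2-fold. With a pseudocount of 0.1 or in TPM it passed that fold. The longest annotated transcripts of SPRR1A and SPRR1B are identical at 83.8% of 613 aligned bases, with a longest identical run of 74 bases, so reads may have been divided between them with error.

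SPRR2A (gene 6700, 153028596 to 153029988, minus strand) had 4 counts in H2087 and 132 in H596, an FPKM of 0.120 (0.0466 to 0.308) and 3.43 (2.89 to 4.07). It was 28.0-fold higher in H596, with a wide interval from 10.7 to 104. Its neighbour and paralog SPRR2D showed the opposite pattern, with 112 counts in H2087 and 6 in H596, an FPKM of 3.42 (2.84 to 4.11) and 0.142 (0.0651 to 0.310), and was 22.0-fold higher in H2087 (9.80 to 61.3). H2087 thus had its SPRR2 counts mainly at SPRR2D and H596 mainly at SPRR2A. The longest annotated transcripts of SPRR2A are identical to those of SPRR2D at 92.7% of 576 aligned bases, with a run of 131 identical bases, and to those of SPRR2B at 94.2% of 675. How reads matching several copies were assigned is not given in the sources used here, so the split within this subfamily is uncertain. SPRR2B had 0 and 13 counts, SPRR2C 10 and 2, SPRR2F 2 and 0, and SPRR2E, SPRR2G and SPRR4 had 0 counts in both libraries.

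**Figure D2:**
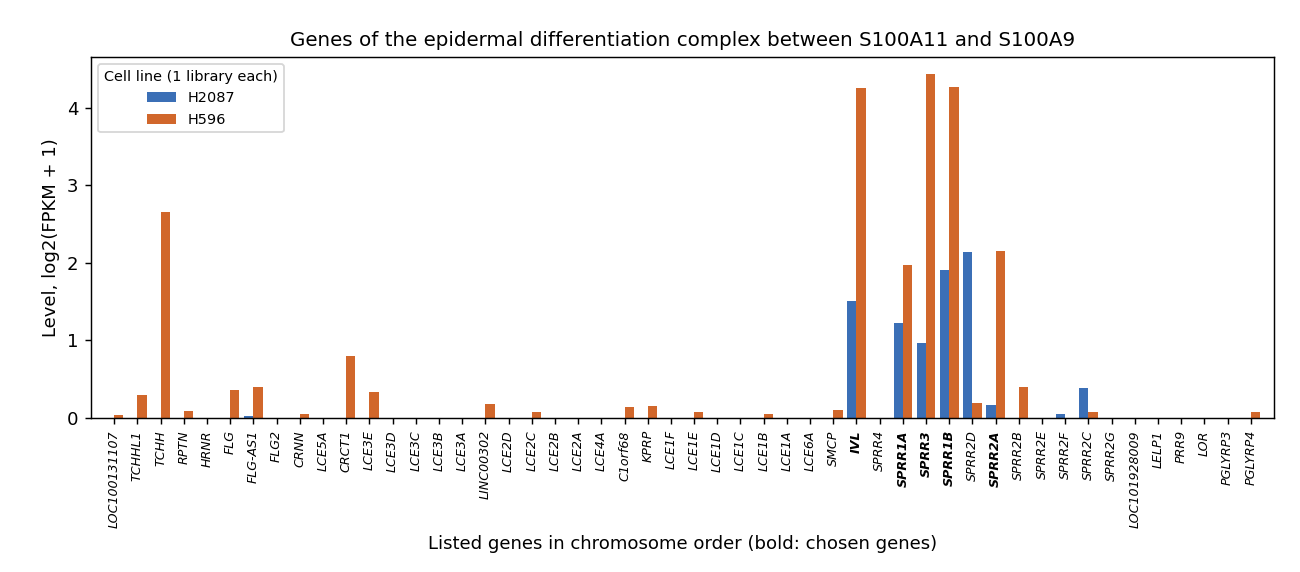
Levels as log2(FPKM + 1) of the 50 listed genes between S100A11 and S100A9 on chromosome 1, in chromosome order, with blue bars for H2087, orange bars for H596 and the chosen genes in bold. The signal is gathered at IVL and the SPRR genes, with TCHH apart from them, while the LCE genes and LOR lie at or near 0.

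These 5 genes lie within 149 kb of the epidermal differentiation complex, a cluster on chromosome 1 that holds most genes of envelope precursors. Between S100A11 and S100A9 the tables list 50 genes over 1269 kb. Apart from the 5 chosen ones, 2 of the 45 others reached 1 FPKM in either library, SPRR2D in H2087 and TCHH in H596. Among all 27685 listed genes, 1 FPKM was reached by 12534 in the H2087 library and by 12608 in the H596 library. Of the 45, 24 had 0 counts in both libraries, 4 had any count in H2087 and 20 had any in H596. Apart from TCHH, FLG and FLG-AS1, none of these 20 had more than 46 counts in H596. The share of all listed genes with any count is not given here, so nothing is read from 4 against 20. TCHH, which encodes trichohyalin, a structural protein of the hair root sheath and of filiform papillae, had 0 counts in H2087 and 2096 in H596, an FPKM of 5.28 (5.06 to 5.51), and was at least 592-fold higher there. All 18 late cornified envelope (LCE) genes had 0 counts in H2087 and at most 8 counts in H596. LOR, the gene of loricrin, the main precursor in epidermis, had 0 counts in both. FLG, the gene of filaggrin, had 0 counts in H2087 and 202 in H596, which over its long transcript is an FPKM of 0.279, and it overlaps the antisense gene FLG-AS1, which had 74 counts there. LOR, FLG and the SPRR2 genes other than SPRR2A and SPRR2D were named after their values were seen.

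CNFN (gene 84518), on chromosome 19 from 42891171 to 42894444 on the minus strand, encodes cornifelin, a small protein incorporated into the envelope. It had 22 counts and an FPKM of 0.869 (0.574 to 1.32) in H2087, and 293 counts and 9.75 (8.70 to 10.9) in H596. The share of counts was 11.3-fold higher in H596 (7.32 to 18.3).

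TGM1 (gene 7051) encodes the membrane-anchored transglutaminase that cross-links involucrin and the small proline-rich proteins. It lies on chromosome 14 from 24718320 to 24732416, on the minus strand. Its FPKM was 0.895 (0.749 to 1.07) in H2087 and 18.7 (18.1 to 19.4) in H596, and it was 20.9-fold higher in H596 (17.4 to 25.3). TGM2, the widely expressed tissue transglutaminase, had the highest level of the family in both libraries, with 49.8 FPKM in H2087 and 268 in H596, a difference of 2.40. Its share of counts was 3.26-fold higher in H596 (3.20 to 3.33), less than the FPKM values give. TGM3 and TGM5, the other transglutaminases of the epidermis, were also looked up after their values were seen. TGM3 had 0 counts in both libraries, and TGM5 had 0.293 FPKM in H2087 against 0.454 in H596. Apart from TGM2, TGM1 was thus the one gene of the 8 in this family list that reached 1 FPKM, and that in H596.

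SBSN (gene 374897) encodes suprabasin, a secreted protein of the suprabasal layers, and was the exception in direction. It lies on chromosome 19 from 36014269 to 36019253, on the minus strand. It had 428 counts and an FPKM of 5.99 (5.45 to 6.58) in H2087, the highest of the 10 genes there, and 15 counts and 0.133 (0.0806 to 0.219) in H596. The share of counts was 33.7-fold higher in H2087 (20.2 to 60.7). The next listed gene, DMKN, which encodes dermokine, a secreted protein of the same differentiated layers, had 40.3 FPKM (38.6 to 42.1) in H2087 and 2.23 (1.89 to 2.64) in H596, a 17.6-fold difference in the same direction (14.8 to 21.0). KRTDAP, the next keratinocyte differentiation gene of that cluster, had 7 counts in H2087 and 0 in H596, and was named after its values were seen. On the other side of SBSN, GAPDHS, the sperm form of glyceraldehyde-3-phosphate dehydrogenase, had 454 counts in H2087 and 0 in H596, at least 178-fold higher in H2087. TMEM147-AS1 and TMEM147, the next genes on that side and also named after their values were seen, differed by -0.06 and -0.60, within 2-fold.

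TRIM29 (gene 23650) encodes a tripartite motif protein of basal and squamous epithelia, and is not a known building block of the envelope. It lies on chromosome 11 from 119981983 to 120008863, on the minus strand. It had 3 counts in H2087, an FPKM of 0.0138 (0.00470 to 0.0406), and 38787 counts in H596, an FPKM of 227 (225 to 230), which ranked it 229 among all genes. The ratio of the count shares was 10962 (3751 to 53158), wide because of the 3 counts. CSTA and TRIM29 were the 2 of the 10 genes that reached 100 FPKM in H596, a level reached by 2.30% of all listed genes there, and none of the 10 reached it in H2087. The next genes, SPRR3, TGM1, SPRR1B and IVL, lay more than an order of magnitude lower.

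In H596 the levels followed the order CSTA, TRIM29, SPRR3, TGM1, SPRR1B, IVL, CNFN, SPRR2A, SPRR1A and SBSN. The interval of SPRR3 overlapped those of TGM1 and SPRR1B. The intervals of TGM1, SPRR1B and IVL overlapped, as did those of SPRR2A and SPRR1A, so these genes were not separated beyond counting error. In H2087 the order was SBSN, SPRR1B, IVL, SPRR1A, SPRR3, TGM1, CNFN, SPRR2A, TRIM29 and CSTA. There the intervals of IVL and SPRR1A overlapped, as did those of SPRR1A, SPRR3, TGM1 and CNFN. CSTA, with 0 counts, could not be ordered there against TRIM29, with 3, or against SPRR2A. The limit for CSTA lies above the interval of TRIM29 and inside that of SPRR2A. SBSN, the highest in H2087, was the lowest in H596.

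SPRR1A, SPRR3, SBSN and TRIM29 have more than 1 listed transcript, and the division between them is an estimate by the authors' software that the intervals do not cover. In SPRR1A, NM_005987 held 62.3% of the gene's FPKM in H2087 and 22.4% in H596, where NM_001199828 held 77.6%. The FPKM of NM_005987 alone was 0.825 in H2087 and 0.656 in H596, so the higher gene value in H596 came from NM_001199828, at 0.499 and 2.28. These transcripts span the same ends and differ by a few bases in length, 655 against 641, and their counts were between 16 and 85. In SPRR3, NM_001097589 held 100% in H2087 and 93.2% in H596. In SBSN, all 15 counts in H596 were given to NM_001166034, the longest transcript, while in H2087 it held 52.9%, NM_198538 held 39.9% and NM_001166035 held 7.25%. In TRIM29, NM_012101 held 98.1% in H596, and NM_001330382, whose start lies further downstream, held 1.86%, an FPKM of 4.22.

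**Figure D3:**
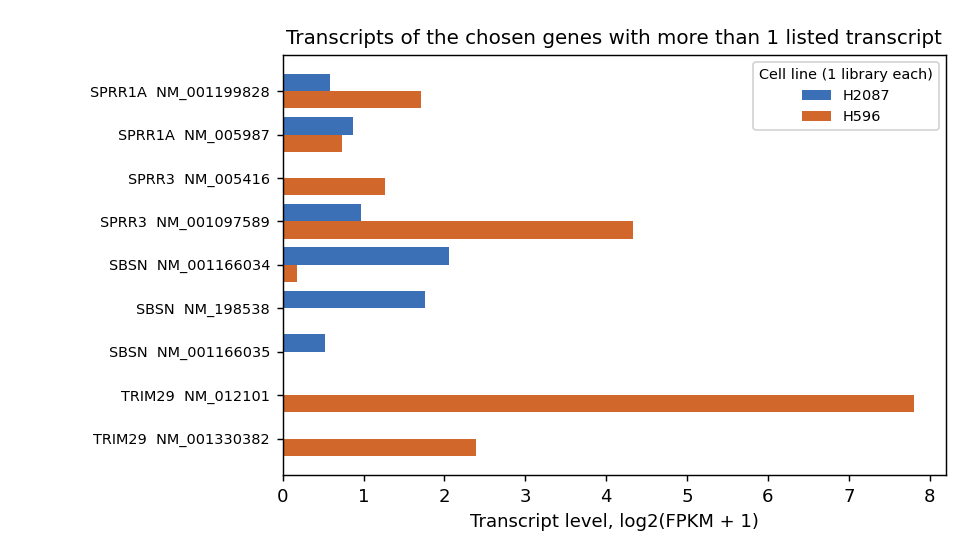
Levels as log2(FPKM + 1) of each listed transcript of SPRR1A, SPRR3, SBSN and TRIM29, with blue bars for H2087 and orange bars for H596. The bar of NM_005987 of SPRR1A, a gene within 2-fold, is not higher in H596, but it rests on an estimate of 26 and 24 counts. In H596, 2 of the 3 SBSN transcripts have no bar.

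The wider cornification lists hold 75 further genes, and most of them lay below 1 FPKM in both libraries. Over all 27685 listed genes, 12534 reached 1 FPKM in H2087 and 12608 in H596, and the share with 0 counts in both is not given here. Of the 75, 22 reached 1 FPKM in either library and 26 had 0 counts in both. The filter on mean FPKM was passed by 19, of which 10 were at least 2-fold higher in H596 and 3 at least 2-fold lower, beside the 18.2% and 14.2% of all genes given above. A gene can pass this filter through the library in which it is high. The median difference over the 75 was 0.00. The lists share the libraries with the chosen genes and were written with earlier results known, so they are not independent of them.

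Among scaffold proteins, PPL (periplakin) stood at 15.5 FPKM in H2087 against 44.8 in H596, a difference of 1.47. EVPL (envoplakin), its partner, had 7.35 and 15.1, a difference of 0.94 that missed 2-fold on the log2 scale. Among further precursors, PI3, which encodes the cross-linkable elastase inhibitor elafin, had 0 counts in H2087 and 124 in H596, at least 35.0-fold higher. DMKN, described above and higher in H2087, was the only other further precursor that reached 1 FPKM. Among genes of the lipid envelope, SULT2B1, a cholesterol sulfotransferase, had 3.72 and 28.3 FPKM, and ABCA12, a lipid transporter of lamellar granules, had 0.413 and 4.38. ALOXE3, an epidermal lipoxygenase, had the reverse pattern, with 289 counts in H2087 and 32 in H596, but its mean level fell below the filter. Below 1 FPKM in both libraries, ELOVL4 had 111 and 12 counts and ALOX12B 34 and 0, in the direction of ALOXE3. CERS3 had 0 and 7, in the other direction, and CYP4F22 and PNPLA1 had 0 in both. These genes below 1 FPKM were named after their values were seen. Of the proteases and inhibitors, the membrane proteases ST14 and PRSS8 had 131 and 51.8 FPKM in H2087 and 91.8 and 65.4 in H596, both within 2-fold. SPINK5, an inhibitor of epidermal kallikreins, had 0.441 and 3.51.

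Of the 8 listed transcription factors of squamous lineage and differentiation, 6 passed the filter. Of these, 3 were at least 2-fold higher in H596, against 18.2% of all genes, and 0 were at least 2-fold lower. A gene can pass through the library in which it is high, so nothing is read from this count. TP63, the squamous lineage factor, is 1 of the 3 and was also counted among the squamous and basal markers above. It had 46 counts and 0.183 FPKM in H2087 against 55.2 FPKM in H596. GRHL3, a grainyhead-like factor needed for the epidermal barrier, had 0.935 and 11.5, but was not among the 4 highest of the list and was named after its values were seen. GRHL2 had 16.8 and 37.3, a difference of 1.10 that fell under 2-fold after TMM scaling or centring. GRHL1 had 16.8 and 19.1 and KLF4, a factor of late differentiation, had 10.9 and 12.3, both within 2-fold. OVOL1 had 3.30 and 5.37, ZNF750 0.234 and 0.605 and PRDM1 0.463 and 0.744, with differences of 0.57, 0.38 and 0.25. The latter genes were also named after their values were seen. Whether any of these factors has a part in the differences of the chosen genes was not tested.

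**Figure D4:**
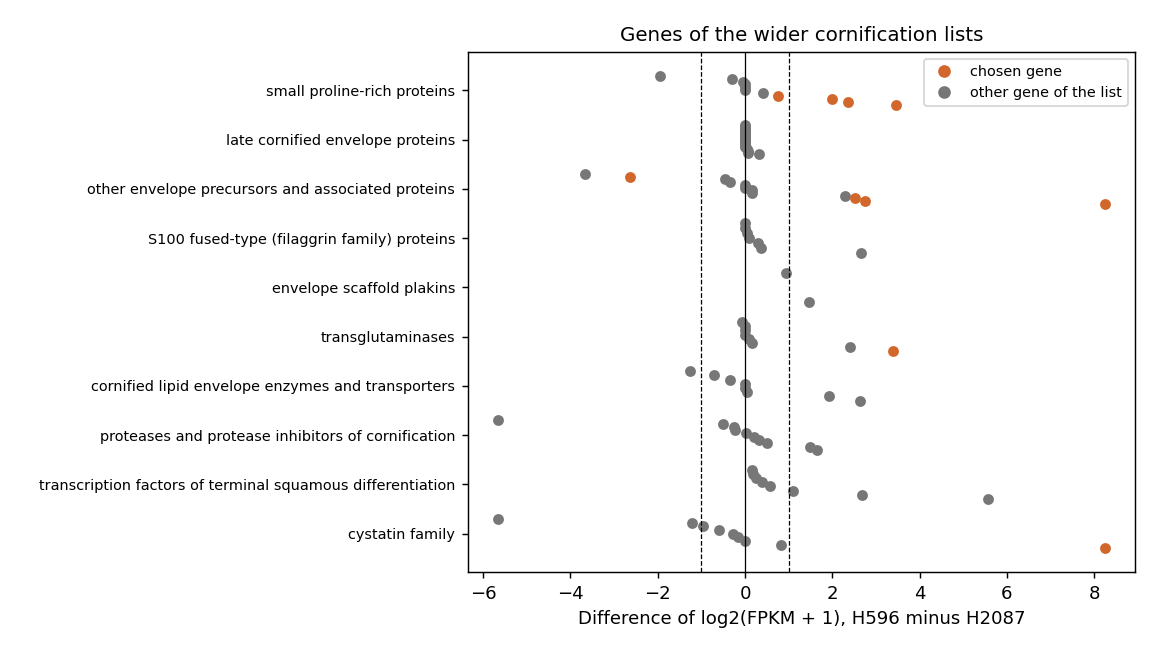
Difference of log2(FPKM + 1), H596 minus H2087, for each gene of the wider lists, 1 row per list, with chosen genes in orange, other genes in grey and dashed lines at a 2-fold difference. The LCE genes lie at or near 0, while TP63 lies far to the right and CST6 and DMKN to the left.

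The genes nearest to these loci differed in both directions. TGM1 differed by 3.38 while TINF2 and RABGGTA, the nearest listed genes, 6.44 kb before and 2.33 kb after it, differed by 0.32 and 0.16. CSTA differed by 8.24 while CASR, 38.7 kb before it, had 0 counts in both libraries and CCDC58, 17.6 kb after it, was lower in H596, by a difference of -1.07. TRIM29 differed by 7.82, while OAF, 72.9 kb after it, differed by -2.03. On its other side, LOC102724301, 372 kb away, had 0 and 31 counts, and NECTIN1, the next gene and named after its values were seen, was higher in H596 like TRIM29, with 9.90 and 117 FPKM and a difference of 3.44. The IVL and SPRR genes were bounded by SMCP, with 0 and 3 counts, and SPRR2B. At SBSN, in contrast, the nearest genes on both sides, DMKN and GAPDHS, differed in its direction, by -3.67 and -2.88. None of the 10 genes overlaps another listed gene.

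**Figure D5:**
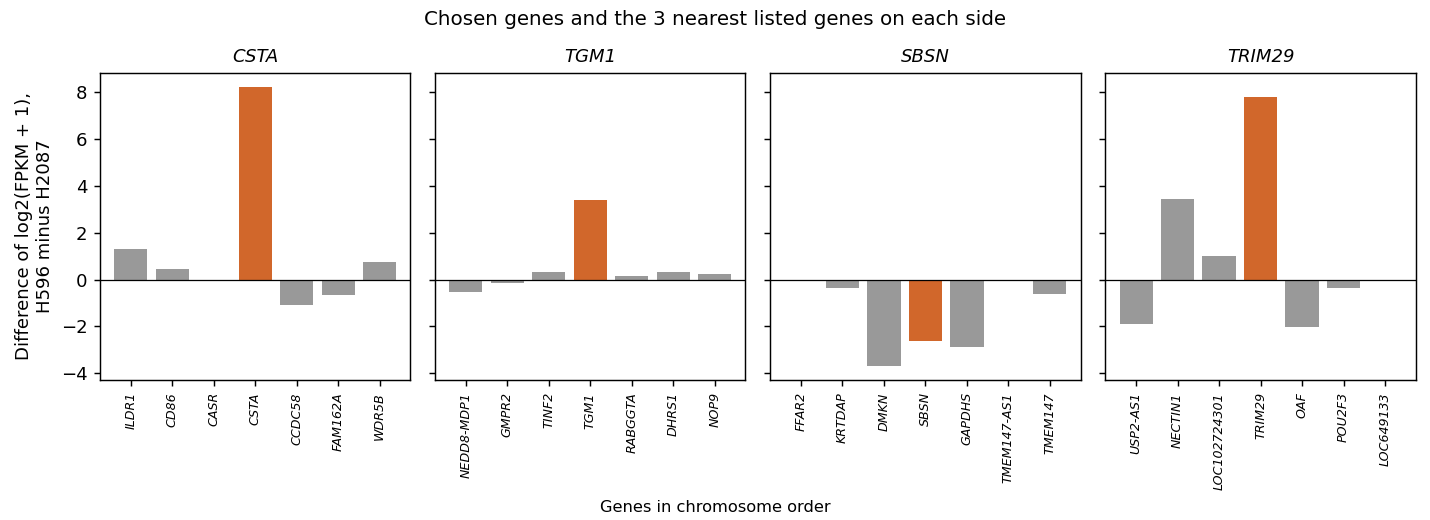
Difference of log2(FPKM + 1), H596 minus H2087, of CSTA, TGM1, SBSN and TRIM29 in orange and of the 3 nearest listed genes on each side in grey, in chromosome order. TGM1 and CSTA stand well above their neighbours, while SBSN lies between DMKN and GAPDHS, which are lower in H596 as well.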

How the data were processed

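RNA-seq data of 1 library each of untreated H2087 and H596 cells were analysed. According to the submitters' processing notes, the tools were bcl2fastq 1.8.4, Trimmomatic, HISAT2 2.0.5 and StringTie 1.3.3b, with hg19 as the genome. Libraries were stranded mRNA libraries. For 27685 genes and 63714 transcripts, the authors deposited an FPKM and an estimated count. The estimated counts are whole numbers, taken as rounded estimates, and 0 columns of sample values could not be mapped to a library. The FPKM values deposited by the authors were used without further normalization.

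Genes were matched by symbol, with the row of the larger mean kept where a symbol had several. H596 and H2087 were set against each other as a difference of log2(FPKM + 1), and 2-fold differences were counted among genes whose mean was 1 FPKM or more. No test between the lines was possible with 1 library each, and no p-value was computed. Intervals are 95% Wilson intervals and exact conditional binomial intervals (scipy 1.17.1). Their coverage was checked on simulated counts of well-covered genes only. It was not checked at counts as low as those on which several of the intervals above rest. For a count of 0, 3 counts per library were taken as the limit. PCR duplicates and mapping error are not covered, and a depth of 46961500 and 55387847 counts sets the precision. TMM factors came from edgeR 4.0.16 in R 4.3.3. Alternatives were pseudocounts of 0.1 and 10, other filters, TMM, TPM, centring, and the highest transcript. Tables were handled with pandas 2.3.3 and numpy 2.4.6 in Python 3.11.15, and figures drawn with matplotlib 3.10.9.

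Named genes are the 10 chosen genes, up to 4 of each list with the highest mean FPKM among those that reach 1 FPKM in either library, the 3 genes nearest to CSTA in level, and the nearest listed gene on each side of each locus, except at CNFN, where the neighbours are not reported here. Of the cell type markers, those printed one by one were picked after their values were seen. The chosen genes and all lists were selected with earlier results of these data known. Transcript likeness and strands are from GENCODE release 44 on GRCh37, promoters from RefSeq on GRCh38.p14. The ChIP-seq and genotype data of the study were not analysed here.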

Additional observations from a re-analysis of the deposited data

How the results depend on the processing

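No paired analysis was possible because there was 1 library per line, and none could be left out. The 8 chosen genes counted as at least 2-fold higher in H596 became 4 when a mean of 10 FPKM was required, since fewer genes enter, and 6 to 9 under the other alternatives. SBSN was no longer 2-fold lower with that filter or with a pseudocount of 10, where its difference was -0.66. The 10 higher genes of the wider lists became 5 with that filter and 4 with a pseudocount of 10, which shrinks low values, and 9 to 12 otherwise. The 2376 genes counted over the whole table became 1045 with that filter, 679 with a pseudocount of 10 and 3590 in TPM, where the median difference of all genes tested was 0.29. The count of 2 chosen genes reaching 100 FPKM in H596 was 2 with thresholds of 50 and 200, in TPM and by the highest transcript. Of 60 recomputed differences of the chosen genes, 30 lay outside the counting interval of the value as reported and 0 changed sign, which a pseudocount cannot do. The smallest was SPRR1A, from 0.19 with a pseudocount of 10 to 1.09. Depth limits the folds of SPRR2A, TRIM29 and SBSN, which rest on 3 to 15 counts in the lower library.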
